A study of Mus musculus with 24 samples.

Results

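Dexamethasone (Dex), a synthetic agonist of the glucocorticoid receptor, was added to cultured mouse CD8+ T cells that also received the cytokine IL27, and RNA was compared at day 9 between cells with both (Dex+IL27) and cells with IL27 alone. The comparison holds 6 of the 24 libraries of the study, chosen by their labels: 3 with IL27 and 3 with Dex+IL27, read across all genes of the count table. The 3 untreated libraries (Ctrl) and 3 libraries with Dex alone from the same day show the Dex response without IL27. All 4 groups were E8i-Cre-Nr3c1fl/fl cells of strain C57BL/6, labelled wild type. The series sets this genotype against E8i-Cre+Nr3c1fl/fl, so the minus is read here as the absence of the Cre, which the E8i enhancer of Cd8a drives in CD8+ T cells: the receptor gene Nr3c1 is floxed and taken to be intact. Sorted naive CD8+ T cells from spleen and lymph nodes were stimulated for 3 days on plates that carried anti-CD3 and anti-CD28, each at 1 µg/ml, rested for 3 days in IL2 at 5 ng/ml, and stimulated again for 3 days. Dex at 10 nM and IL27 at 25 ng/ml were present in both stimulations and are not listed for the rest. For each library 1000 cells were sorted and their RNA was read with a modified form of SMART-Seq2, which copies and amplifies full-length cDNA. The labels tie no replicate to its own animal or culture, so the p-values reflect only how far these libraries spread. The age of the mice is not given in the sources used here.

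The glucocorticoid receptor waits in the cytoplasm in a complex with Hsp90 chaperones. Bound to hormone, it enters the nucleus, sits as a dimer on an inverted repeat in DNA near the genes it raises, and lowers many inflammatory genes that AP-1 and NF-kB drive. IL27, made of the subunits Ebi3 and p28, signals through Il27ra and gp130 to JAK kinases and STAT transcription factors, and is known in T cells for raising the anti-inflammatory cytokine Il10 and inhibitory receptors. Inhibitory receptors such as PD-1, Lag3 and Tigit are surface proteins that restrain activated CD8+ T cells and mark dysfunctional ones in tumours, the setting named in the title of the study.

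The promoters of 3 genes show the 2 kinds of DNA letters that these 2 pathways are known to use, in genes that rose when Dex was added to IL27. Each run is the 250 bases before a RefSeq gene start on the GRCm38.p6 build, 5′ to 3′ on the gene's strand, with the matched letters in capitals. Sgk1 encodes a kinase induced by glucocorticoids, Mt1 a metal-binding metallothionein, and Irf1 a transcription factor induced by interferons and IL27. Sgk1 and Irf1 were picked for printing after their values were seen.
Sgk1, chr10:21993640-21993889, plus strand: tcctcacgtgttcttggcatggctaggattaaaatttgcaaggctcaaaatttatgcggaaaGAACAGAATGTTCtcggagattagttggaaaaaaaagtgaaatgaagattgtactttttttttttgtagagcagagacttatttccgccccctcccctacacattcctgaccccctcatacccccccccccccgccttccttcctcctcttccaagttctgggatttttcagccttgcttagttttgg
Mt1, chr8:94178839-94179088, plus strand: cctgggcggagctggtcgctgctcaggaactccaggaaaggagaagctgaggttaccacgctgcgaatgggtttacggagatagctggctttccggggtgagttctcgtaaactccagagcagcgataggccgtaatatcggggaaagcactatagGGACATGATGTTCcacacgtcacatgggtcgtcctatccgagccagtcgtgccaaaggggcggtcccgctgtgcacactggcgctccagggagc
Irf1, chr11:53769764-53770013, plus strand: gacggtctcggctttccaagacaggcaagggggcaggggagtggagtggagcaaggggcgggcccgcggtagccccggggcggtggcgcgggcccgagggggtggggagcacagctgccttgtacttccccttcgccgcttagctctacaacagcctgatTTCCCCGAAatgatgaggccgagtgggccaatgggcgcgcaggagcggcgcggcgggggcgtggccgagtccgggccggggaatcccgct
The capitals in Sgk1 and Mt1 are the 13-letter receptor repeat GNACANNNTGTNC, which starts 188 bases before the start in Sgk1 and 94 in Mt1, and those in Irf1 are the STAT letters TTCNNNGAA, which start 90 bases before it. Both patterns read the same on the other strand. Sgk1 stood at 22.5, 13.4 and 16.8 CPM (read counts scaled to library size) in the IL27 libraries and at 31.7, 27.8 and 32.1 CPM in the Dex+IL27 libraries. Irf1 stood at 115, 57.9 and 64.2 CPM with IL27 and at 152, 121 and 139 CPM with Dex+IL27. For both genes each Dex+IL27 library lay above each IL27 library, and both rose (log2 fold change 0.80 ± 0.15 for Sgk1 and 0.80 ± 0.20 for Irf1).

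The letters are a description of these windows, not evidence of binding. Of the 12320 genes tested 9149 had a promoter of 300 bases (250 before and 50 after the start) in the RefSeq table, and 0.339% of these held the 13-letter repeat. The share was 0.928% among genes that rose (10 genes) and 0.225% among genes that fell (3 genes). Among changes of at least 2-fold the order was the reverse, 0.606% of risen (1 gene) and 0.926% of fallen genes (2 genes). The full repeat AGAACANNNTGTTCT with up to 2 of its 12 fixed letters changed was in 1.13% of all, 1.58% of risen and 1.43% of fallen genes. The STAT letters were in 8.41% of all, 9.74% of risen and 9.46% of fallen genes. In the glucocorticoid response list 21 genes had a promoter, and 2 of these (9.52%) held the 13-letter repeat and 7 (33.3%) the STAT letters.

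The total of estimated counts ranged from 16091050 to 19018440 over the 12 day 9 libraries. The Dex+IL27 libraries lay together at one end of the leading principal component (51.9 to 54.0, 51.4% of the variance) and the Ctrl libraries at the other (-77.5 to -74.6). IL27 replicate 1 stood apart from its group: it lay at 29.98 on that component where the other two IL27 libraries lay at 1.03 and 9.25. Calls that turned on leaving it out are given with and without it. The share of counts taken by Rn45s, the ribosomal RNA precursor, moved with the groups: 8.95 to 9.25% in Ctrl, 14.1 to 15.05% in Dex, 13.8 to 14.5% in IL27 and 15.8 to 16.4% in Dex+IL27. Leaving Rn45s out gave 1458 rises and 1742 falls. The labelled cell type was present in both groups: Cd8a and Cd8b1, the chains of CD8, stood at means of 236 ± 31.0 and 199 ± 28.3 CPM with IL27 and 283 ± 32.8 and 238 ± 31.8 CPM with Dex+IL27 (SD, n = 3), and neither passed the test.

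Markers of other cell types were low. Of 15 myeloid and dendritic markers 5 were tested, and their summed level was 15.6 to 22.9 CPM with IL27 and 25.1 to 28.3 CPM with Dex+IL27, with S100a8 and Mpo at 0 counts in both groups. The marker genes given here as changed were named after their values were seen. One myeloid marker, the integrin chain Itgam, rose (3.34, 0.799 and 0.842 against 10.8, 7.61 and 10.1 CPM). Another, the cytokine receptor Flt3, fell. The 8 B cell markers summed to 32.2 to 36.4 and 25.1 to 26.1 CPM, with Ms4a1, Pax5 and Blk at 0 counts in both groups and none of 3 tested passing. The 6 CD4 T cell markers summed to 24.3 to 29.5 and 17.2 to 20.3 CPM: the adaptor Trat1 and the CD4 lineage factor Zbtb7b fell, and Cd4 itself stood at 2.43 ± 0.557 and 1.25 ± 0.874 CPM. NK cell markers summed to at most 2.09 CPM in either group, with Ncr1 at 0. Erythroid and platelet markers summed to at most 2.63 CPM. Stromal and epithelial markers summed to 36.8 to 51.5 and 27.3 to 37.9 CPM, with Epcam, an epithelial adhesion molecule, down. The part that these cells may have in the results was not tested. In bulk RNA, fewer cells of a kind and less RNA per cell cannot be told apart.

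Adding Dex to IL27 changed 3207 of the 12320 genes tested (26.0%): 1443 rose (11.7%) and 1764 fell (14.3%) at a Benjamini-Hochberg adjusted p under 0.05 in edgeR's quasi-likelihood test, which is what passing the test means here. Changes are log2 fold changes ± SE on counts scaled by TMM, a method that assumes most genes unchanged. With library totals alone as the scale, 1117 rose and 2211 fell, so rises were 33.6% of the calls in place of 45.0%, and the median over all genes lay at -0.058 in place of 0.003. Most changes were small: 234 genes rose at least 2-fold (1.90%) and 302 fell at least 2-fold (2.45%). In 4562 genes (37.0%) the 3 libraries of one group all lay above the 3 of the other, 18.1% with Dex+IL27 above and the rest with it below. The count of genes that passed was 3959 without IL27 replicate 1 and 2160 without IL27 replicate 3, where 942 rose. It was 2200 without IL27 replicate 2, 981 of them up.

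Tsc22d3 and Fkbp5, known targets of the glucocorticoid receptor, rose on top of IL27, as did Plaur, Tgfb3 and Ramp3 of the glucocorticoid response list. Tsc22d3, the gene of GILZ, a leucine zipper protein induced by glucocorticoids, stood at 117, 96.7 and 94.4 CPM with IL27 and at 766, 819 and 803 CPM with Dex+IL27. Its 2 groups were far apart (2.95 ± 0.11, adjusted p = 4.69e-10). Fkbp5, a co-chaperone that feeds back on the receptor, stood at 39.2, 29.4 and 35.8 CPM and then at 127, 122 and 131 CPM (1.86 ± 0.10). Plaur, the urokinase receptor, was close to undetected with IL27 (0.226, 0.114 and 0.0526 CPM) and stood at 17.2, 14.7 and 13.8 CPM with Dex+IL27 (6.81 ± 0.26), the largest rise among genes that averaged at least 10 CPM in a group. On the log2(FPKM + 1) scale that rise was 3.45. Tgfb3, which encodes TGF-beta 3, a cytokine, rose from 12, 3.77 and 6.84 to 40.8, 39 and 55.3 CPM (2.58 ± 0.30), and Ramp3, a partner of peptide hormone receptors, by 2.28 ± 0.21.

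Of 23 tested genes in the glucocorticoid response list 16 rose, 1 fell and 6 did not pass. Over all genes tested 11.7% rose and 14.3% fell. The list's median log2 fold change was 0.81 beside 0.003 over all genes tested. The 1 that fell was the clock gene Per2 (-1.82 ± 0.53), named after its value was seen, and its call ended without IL27 replicate 2 or 3 or Dex+IL27 replicate 1 or 3. Mt1 stood at 471, 257 and 305 CPM with IL27 and at 556, 609.6 and 631 CPM with Dex+IL27 (0.80 ± 0.15). Its highest IL27 value was in replicate 1, and without that library the change was 1.09. Il7r, the receptor that keeps naive and memory cells alive, rose by 0.81 ± 0.12. The lists were written with results of these data known, so their counts are a description.

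The receptor's own transcript was higher with Dex. Nr3c1 stood at 18.3, 18.2 and 17.4 CPM with IL27 and at 33.7, 28.3 and 30.1 CPM with Dex+IL27, with no overlap (0.77 ± 0.09, adjusted p = 4.76e-05). Of 14 tested genes for the receptor's chaperones and co-factors 3 rose and 8 fell, beside 11.7% and 14.3% of all genes. Their median was -0.18. The co-activator Ncoa2 rose by 0.51 ± 0.10 and the co-repressor Ncor1, named after its value was seen, by 0.28 ± 0.08, while the chaperone Hsp90aa1 fell from 348, 533 and 460.5 to 274, 273 and 257 CPM (-0.74 ± 0.11) and the co-chaperone Fkbp4 fell by 0.53 ± 0.12. The falls numbered 4 without IL27 replicate 2 or 3 and 5 without any 1 of the Dex+IL27 libraries.

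**Figure D1:**
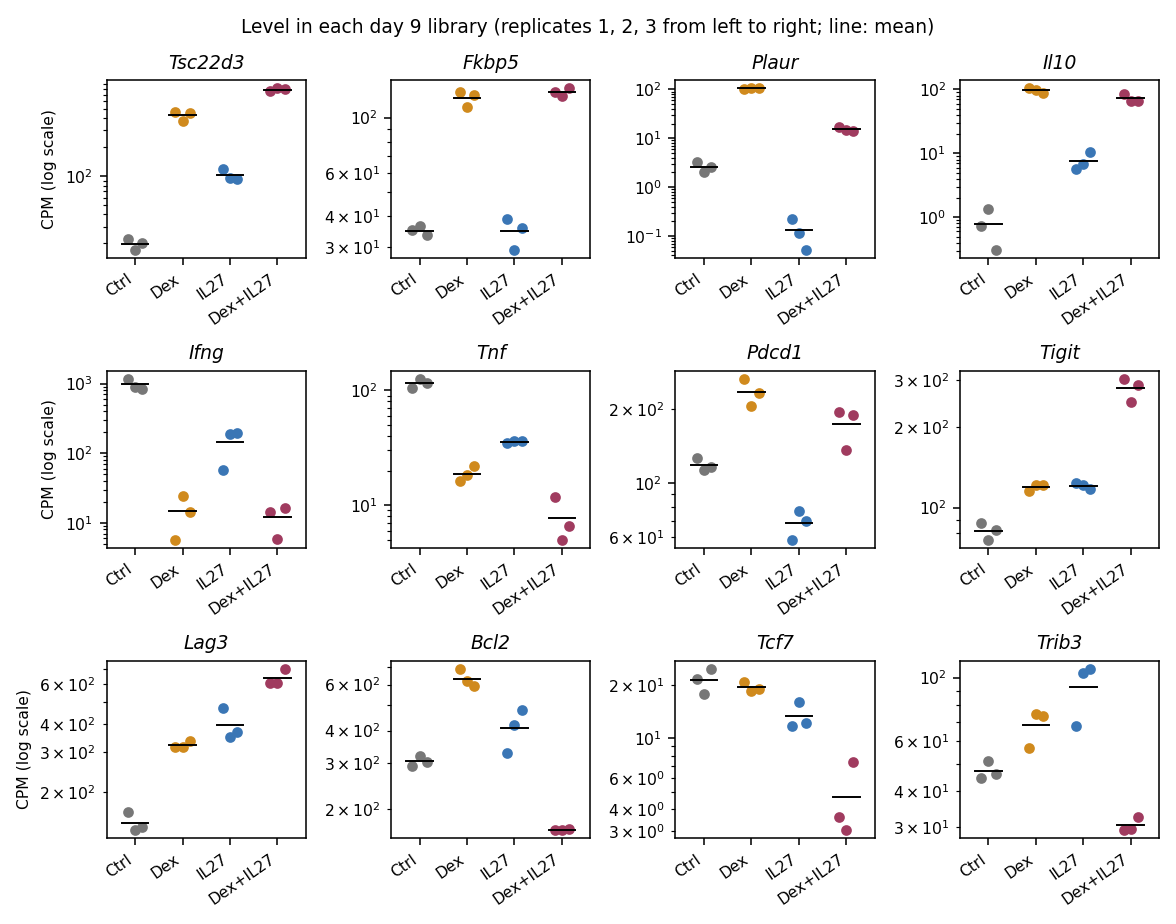
Normalised level (CPM, log axis) of 12 genes in the 4 day 9 groups, Ctrl, Dex, IL27 and Dex+IL27, with 1 point per library and a line at the mean of 3. Tsc22d3, Fkbp5 and Plaur are higher with Dex+IL27 than with IL27 in every library, Ifng and Tnf are lower, and Bcl2 is higher with Dex than in Ctrl but lower with Dex+IL27 than with IL27.

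Transcripts of the IL27 pathway changed in both directions. Il27ra, the IL27-specific receptor chain, stood at 77.2, 60.2 and 67.2 CPM with IL27 and at 76.6, 75 and 81.5 CPM with Dex+IL27. The groups overlapped and the gene did not pass (0.19 ± 0.09, adjusted p = 0.134), but it passed without IL27 replicate 1 (0.28, adjusted p = 0.0159). Stat2, a transcription factor of the interferon response, rose from between 69.8 and 73.1 to between 97.2 and 104 CPM (0.49 ± 0.08). Of 21 tested genes of the receptor and JAK-STAT list 7 rose and 4 fell, beside 11.7% up and 14.3% down over all genes. The list median was 0.19, and 4 rose without IL27 replicate 3.

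The feedback inhibitors of cytokine signalling did not move as 1 group. Socs3, which blocks signalling through gp130, rose (64.6, 65 and 58.7 against 87.1, 79.2 and 88.3 CPM; 0.44 ± 0.12, adjusted p = 0.0133), a call that ended without IL27 replicate 3 and on the FPKM scale without a filter (adjusted p up to 0.0652). Socs1, an inhibitor of interferon signalling, fell from 62.7, 80.5 and 88.5 to 45.5, 45.8 and 43.6 CPM (-0.78 ± 0.16). Socs2 fell by 0.73 ± 0.09 and Cish by 0.77 ± 0.11, both of them inhibitors induced by STAT5 downstream of IL2, and the kinase Pim2, named after its value was seen, fell by 0.38 ± 0.08. No IL27 library of Socs1, Socs2 or Cish lay as low as any Dex+IL27 library.

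More cytokine transcripts fell than rose, and Il10 was among those that rose. Il10 stood at 5.66, 6.74 and 10.4 CPM with IL27 and at 85.6, 65.8 and 65.9 CPM with Dex+IL27 (3.25 ± 0.21, adjusted p = 2.88e-07). Every library with Dex lay far above any without. Ifng, which encodes the effector cytokine interferon gamma, stood at 58, 187 and 195 CPM and then at 14.3, 5.91 and 16.2 CPM (-3.59 ± 0.48, adjusted p = 0.000126). IL27 replicate 1 was the lowest of its group and still above every Dex+IL27 library. Tnf, a cytotoxic and inflammatory cytokine, fell from 34.4, 36.3 and 36 to 11.8, 4.99 and 6.57 CPM (-2.19 ± 0.21).

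Of 25 tested cytokines and chemokines 3 rose, 9 fell and 13 did not pass, beside 11.7% up and 14.3% down over all genes. The list median was -0.85. For 6 tested members at least 1 of the groups had no counts, and with the empty group set to 3 counts the median was -0.75. It was -0.28 without IL27 replicate 2 and -0.46 without IL27 replicate 3. Il10 and Tgfb3 were among the 3 that rose, and the third was the chemokine Ccl5 (1.24 ± 0.23), named after its value was seen. Lymphotoxin (Lta) fell by 1.74 ± 0.18 and the chemokine Ccl3, which draws monocytes and T cells, by 1.46 ± 0.31. Il24, a cytokine of the Il10 family, fell from 95.6, 207 and 211 to 14.3, 48.8 and 15.7 CPM (-2.71 ± 0.38). Lif, a cytokine that signals through gp130 as IL27 does, fell from 18.3, 33.6 and 39.5 to 4.85, 4.63 and 1.38 CPM (-3.08 ± 0.32).

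The best-known inhibitory receptors were higher when Dex was added to IL27. Pdcd1, which encodes PD-1, stood at 58.7, 76.8 and 70.01 CPM with IL27 and at 193, 136 and 189 CPM with Dex+IL27 (1.33 ± 0.13, adjusted p = 1.04e-05). Tigit, a receptor for nectin-family ligands, stood at 124, 121 and 117 CPM and then at 304, 249 and 287 CPM (1.21 ± 0.08). Havcr2, which encodes TIM-3, went from a mean of 27.3 ± 6.46 to 58.7 ± 4.41 CPM (1.11 ± 0.20). In none of these genes did the groups overlap. Ctla4, which competes for costimulatory ligands, rose by 1.03 ± 0.07 and Lag3, a receptor that binds MHC class II, by 0.69 ± 0.10 from a level already at 396 ± 63.4 CPM.

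The list of inhibitory receptors as a whole did not go one way: of 22 tested, 6 rose, 6 fell and 10 did not pass. Over all genes tested 11.7% rose and 14.3% fell. The list median was -0.04, and it lay between -0.09 and 0.04 when 1 library was left out. The sixth that rose was Cd160 (1.34 ± 0.35), named after its value was seen. Lilrb4, an inhibitory receptor best known on myeloid cells, fell from 103, 129.9 and 147 to 44.6, 41.8 and 38.3 CPM (-1.61 ± 0.11), with reads that may be shared with its near-identical neighbour Gp49a. Procr, the protein C receptor, fell from 35.3, 38.8 and 39 to 8.67, 11.4 and 7.95 CPM (-2.01 ± 0.17). Pdpn, which encodes podoplanin, fell by 2.19 ± 0.32. Procr and Pdpn are known as members of a coinhibitory set induced by IL27. Both were lower in every library with Dex+IL27 than in any with IL27 alone. For Pdpn this gap follows from how it was chosen, among the largest falls with no overlap. Such a gap, in either direction, was seen in 37.0% of all genes tested.

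Regulators of effector and dysfunctional states were split as well. Prdm1, which encodes the repressor Blimp-1, stood at 18.2, 14.6 and 11.3 CPM with IL27 and at 23, 31.4 and 34.3 CPM with Dex+IL27 (1.01 ± 0.20, adjusted p = 0.00194). Maf, which drives Il10 in T cells, stood at 1.98, 1.14 and 3.68 CPM and then at 16.1, 16.7 and 15.2 CPM (2.81 ± 0.33, and 1.75 on the log2(FPKM + 1) scale). Tcf7, which encodes TCF-1 and maintains naive, memory and stem-like cells, fell from 11.8, 16 and 12.2 to 3.59, 3.05 and 7.37 CPM (-1.50 ± 0.25, adjusted p = 0.000623). The 3 genes did not overlap between groups. Eomes, a T-box factor, was under 1.4 CPM in all 6 libraries, and its fall (-2.66 ± 0.83, adjusted p = 0.0284) did not pass on the FPKM scale, without IL27 replicate 1, or without any 1 Dex+IL27 library.

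Of 23 tested transcription factors 5 rose (Prdm1, Maf, Id2, Nfatc1 and Hif1a) and 5 fell (Eomes, Bhlhe40, Irf4, Irf8 and Ahr), with a median of 0.19. Over all genes tested 11.7% rose and 14.3% fell. Id2 rose by 0.80 ± 0.12 and Bhlhe40, which supports cytokine production, fell by 0.54 ± 0.07. Nfatc1, Hif1a, Irf4, Irf8 and Ahr are outside the naming rule and were named after their values were seen. The rises numbered 3 without IL27 replicate 2, without Dex+IL27 replicate 1 or with library totals alone, and the falls 3 without Dex+IL27 replicate 1 or 3. Of 20 tested naive and memory genes 7 rose and 3 fell, beside the same shares of all genes, with a median of 0.19. Satb1, a chromatin organiser of T cells, rose by 0.62 ± 0.09 and the quiescence factor Foxp1 by 0.49 ± 0.08, while Tcf7 and Bcl2 were among those that fell.

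Killing genes changed in both directions. Gzmb, which encodes granzyme B, fell from 5750.1, 6391 and 6037 to 4718, 3999 and 5026 CPM (-0.40 ± 0.07, adjusted p = 0.00117). Gzma, which encodes granzyme A, rose from 953, 476 and 634 to 2575, 2065 and 3023 CPM (1.89 ± 0.30). Neither gene overlapped between groups, though granzymes are similar in sequence and may share reads. Serpinb9, the inhibitor that protects a cell from its own granzyme B, rose from 159.8, 274 and 224 to 568, 487 and 614 CPM (1.34 ± 0.16), and the related Serpinb6b rose by 1.42 ± 0.13. Cst7, an inhibitor of lysosomal proteases, rose by 0.60 ± 0.08. Of 20 tested granule genes 6 rose and 2 fell, beside 11.7% up and 14.3% down over all genes tested. The second that fell was Gzmc, named after its value was seen, and 4 fell with library totals alone.

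Receptors of the NK type changed in both directions. Klra6, of the Ly49 family, had 0 counts in the 3 IL27 libraries and 339 in the 3 Dex+IL27 libraries (4.96, 9.01 and 5.99 CPM), at least 119-fold higher when the empty group is given 3 counts in all. Klra7 rose from 1.81, 4.91 and 5.1 to 32.6, 29.1 and 22.1 CPM (2.82 ± 0.29). Members of this family are near-identical, so their reads may be split between genes. Klre1 fell from 6.11, 6.28 and 5.94 to 1.83, 1.64 and 2.3 CPM (-1.66 ± 0.22), and Klrk1, the activating receptor NKG2D, fell by 0.28 ± 0.06. Of 13 tested, 3 rose and 3 fell, beside 11.7% and 14.3% of all genes, the others being Cd160 up and Klra5 down.

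**Figure D2:**
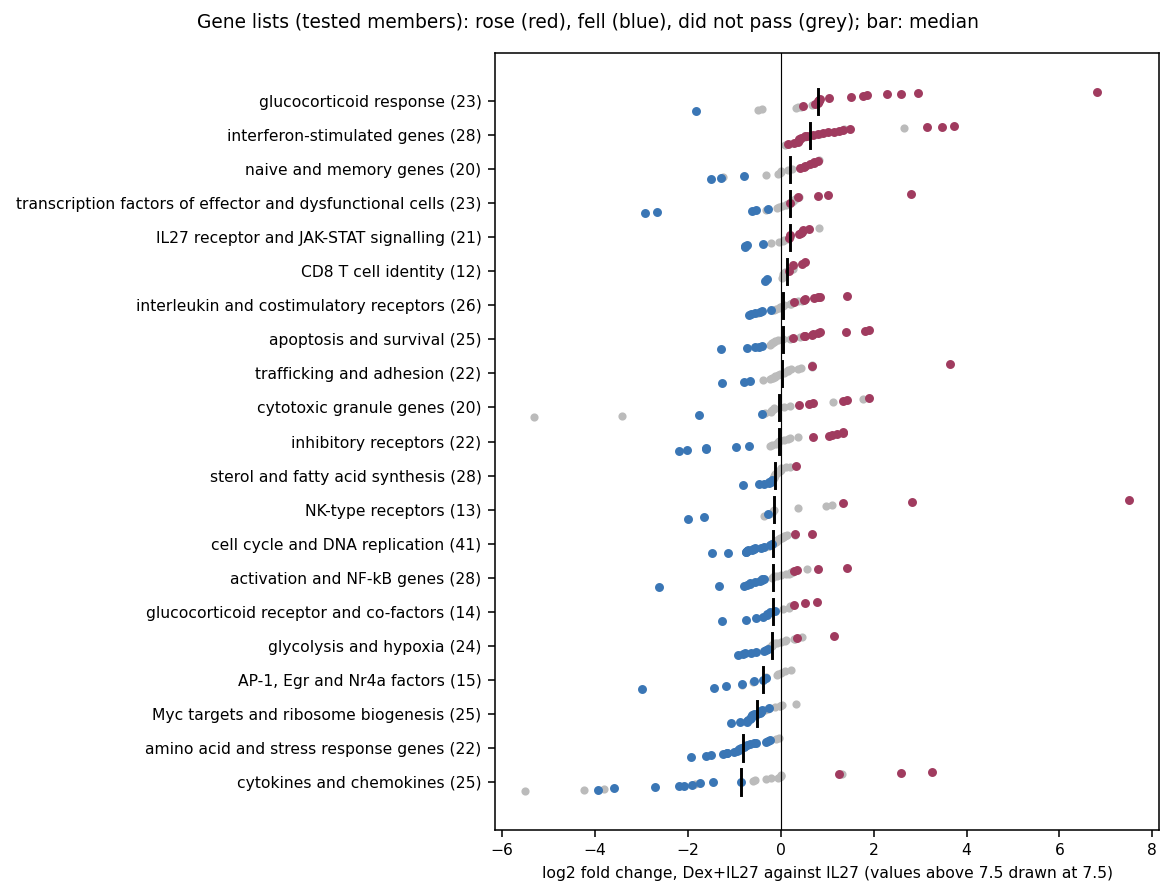
Log2 fold change of each tested member of the 21 gene lists, Dex+IL27 against IL27, with 1 point per gene coloured by whether it rose, fell or did not pass, and a bar at each list's median; the number tested stands after each name and values above 7.5 are drawn at 7.5. The glucocorticoid response list has 16 of 23 members up, the amino acid and stress response list has 20 of 22 members down, and most other lists hold members on both sides.

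The immediate-early factors that changed were lower, and most activation genes that changed were lower too. Jun, a subunit of AP-1, stood at 50.4, 55.9 and 49.5 CPM with IL27 and at 21.4, 25.9 and 21.1 CPM with Dex+IL27 (-1.19 ± 0.11, adjusted p = 5.63e-06). Egr1, induced by receptor stimulation, fell by 0.83 ± 0.15 and the stress-induced Ier3 by 0.39 ± 0.10. Of 15 tested AP-1, Egr and Nr4a factors 0 rose and 7 fell, beside 11.7% and 14.3% of all genes tested. Their median was -0.39, and the falls numbered 4 without IL27 replicate 2. Of 28 tested activation and NF-kB genes 4 rose and 11 fell, beside 11.7% and 14.3% of all genes, with a median of -0.18. Tnfsf8, the ligand of CD30, fell from between 6.68 and 7.48 to between 2.51 and 2.92 CPM (-1.33 ± 0.13), and the adhesion receptor Cd44 fell by 0.66 ± 0.10.

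The costimulator Icos went the other way, from 177, 123 and 151 to 374, 395 and 446 CPM (1.43 ± 0.11), with the 2 groups far apart. The other activation genes that rose were Il2rb, Tnfrsf1b and Nfkbiz, named after their values were seen, and 2 rose without IL27 replicate 3 or Dex+IL27 replicate 1. Among 26 tested interleukin and costimulatory receptors 7 rose and 6 fell, beside 11.7% and 14.3% of all genes. Il10ra, the receptor for Il10, rose from 15.6, 13.6 and 12.7 to 23.3, 25.3 and 26.6 CPM (0.84 ± 0.10). Tnfrsf9, the costimulator 4-1BB, fell from 1521, 1856 and 1979 to 1089, 1041 and 1216 CPM (-0.68 ± 0.09).

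Genes for amino acid supply fell together. Of 22 tested members of the amino acid and stress response list, which holds targets of the transcription factor Atf4, 0 rose and 20 fell. Over all genes tested 11.7% rose and 14.3% fell. The list median was -0.82 beside 0.003 over all genes. Trib3, a pseudokinase that Atf4 induces, fell from 67.5, 104 and 107 to 29.3, 29.6 and 32.6 CPM (-1.61 ± 0.15). Mthfd2, of mitochondrial folate metabolism, fell from 237, 342 and 313 to 158, 161 and 143 CPM (-0.95 ± 0.10). Slc7a3, a carrier of arginine and lysine, fell from 39.4, 73.3 and 65.3 to 15.1, 19.8 and 11.8 CPM (-1.93 ± 0.23). In all 3 genes IL27 replicate 1 was the lowest IL27 library and still lay above the Dex+IL27 libraries. Aldh18a1, which makes a precursor of proline, fell by 0.74 ± 0.09, and the 2 genes that did not pass were the glutamine carriers Slc38a1 and Slc38a2, named after their values were seen.

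Growth genes fell with them. Myc, the growth regulator, stood at 389, 532 and 489 CPM with IL27 and at 329, 249 and 274 CPM with Dex+IL27 (-0.73 ± 0.11). Of 25 tested Myc targets and ribosome biogenesis genes 0 rose and 17 fell, beside 11.7% and 14.3% of all genes tested. Their median was -0.50 beside 0.003. The falls numbered 11 without IL27 replicate 2 or 3. Rrp12, which exports ribosomal subunits, fell by 0.74 ± 0.13, Cad, the first enzyme of pyrimidine synthesis, by 0.71 ± 0.12, and Nhp2, of the complex that modifies ribosomal RNA, by 0.63 ± 0.09.

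Cell cycle genes that passed mostly fell. Ccnd3, the D-type cyclin of lymphocytes, stood at 845, 707 and 864 CPM and then at 281, 282 and 297 CPM (-1.49 ± 0.08, adjusted p = 2.18e-08), with no overlap. Cdc6, which loads the replicative helicase, fell from between 16.2 and 19.7 to between 7.92 and 8.1 CPM (-1.13 ± 0.10). Pcna, the replication clamp, fell by 0.61 ± 0.07 and Rrm2, of ribonucleotide reductase, by 0.70 ± 0.08. Of 41 tested, 2 rose and 15 fell, beside 11.7% and 14.3% of all genes, with a median of -0.18 beside 0.003. The 2 that rose, Cdkn1b, an inhibitor of cyclin kinases, and Rbl2, a pocket protein, were named after their values were seen, and 1 rose with library totals alone.

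Of 24 tested glycolysis and hypoxia genes 2 rose and 8 fell, beside 11.7% and 14.3% of all genes. Hk2, the first enzyme of glycolysis, fell by 0.93 ± 0.13, Eno1 by 0.37 ± 0.06 and Ldha, which makes lactate, by 0.32 ± 0.06. The hypoxia-induced Ndrg1 rose by 1.15 ± 0.15, and Gpi1, named after its value was seen, also rose. Without IL27 replicate 1 the rises numbered 6, without IL27 replicate 2 or 3 or Dex+IL27 replicate 2 or 3 they numbered 1, and without Dex+IL27 replicate 1 the falls numbered 4. Of 28 tested sterol and fatty acid genes 1 rose and 7 fell, which is near the 26.0% of all genes that passed. The sterol enzymes Hsd17b7 (-0.82 ± 0.14), Idi1 (-0.47 ± 0.09) and Fdps (-0.37 ± 0.07) fell and Insig1, which restrains the pathway, rose (0.32 ± 0.06). Without IL27 replicate 1 there were 3 rises, and without Dex+IL27 replicate 3 there were 4 falls.

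Regulators of cell death changed in both directions. Bcl2, the survival factor, stood at 329, 419 and 478 CPM with IL27 and at 166, 166 and 167 CPM with Dex+IL27 (-1.30 ± 0.10, adjusted p = 1.46e-06). The Dex+IL27 libraries were nearly equal (SD 0.531 CPM) and lay below every IL27 library. Other survival genes rose: Mcl1 from 31.4, 30.7 and 32.5 to 52.4, 51 and 47.6 CPM (0.68 ± 0.08) and Bcl2a1b, which has near-identical copies, by 0.80 ± 0.10. Of 25 tested, 10 rose and 5 fell, beside 11.7% and 14.3% of all genes. The list median was 0.05, and -0.005 with library totals alone. Bcl2l1, Bax and Casp8 also fell, named after their values were seen.

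Of 22 tested genes of cell movement 2 rose and 3 fell, a share near the 26.0% of all genes that passed, and 5 rose without IL27 replicate 1. The chemokine receptor Ccr4 fell from 14.5, 18.4 and 19.5 to 7.19, 6.52 and 7.95 CPM (-1.27 ± 0.15). Itgav, an integrin chain that activates TGF-beta, rose by 0.68 ± 0.12. Cd44 also fell and the chemokine receptor Ccr8 rose, the last named after its value was seen. Of 12 tested genes of T cell and CD8 identity 4 rose and 2 fell, beside 11.7% and 14.3% of all genes. The receptor chain Cd3e rose by 0.46 ± 0.10, the kinase Zap70 by 0.53 ± 0.12, and Thy1 fell by 0.29 ± 0.07. The rest were Cd247 and Ptprc up and Lat down. Ptprc (0.27 ± 0.07, adjusted p = 0.00957), which encodes CD45, did not pass without Dex+IL27 replicate 1 (adjusted p = 0.0545). The rises numbered 2 without that library, and the falls 1 without Dex+IL27 replicate 2.

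Interferon-stimulated genes were higher although Ifng was lower. Of 28 tested 19 rose, 0 fell and 9 did not pass, beside 11.7% up and 14.3% down over all genes. Their median was 0.63 beside 0.003 over all genes. Irf7, the transcription factor that amplifies interferon responses, stood at 15.1, 16.2 and 12.3 CPM with IL27 and at 45.5, 32.2 and 44.9 CPM with Dex+IL27 (1.50 ± 0.16, adjusted p = 2.21e-05). Rtp4, an interferon-induced chaperone, stood at 1.87, 1.48 and 2.05 CPM and then at 18.3, 7.55 and 22.2 CPM (3.15 ± 0.45). Dex+IL27 replicate 2 was the lowest of its group in both genes and still above every IL27 library. For Rtp4 this gap follows from how it was chosen, among the 15 largest rises with no overlap. A gap in either direction was seen in 37.0% of all genes tested. Xaf1, linked to cell death, rose by 1.02 ± 0.10, and Ly6a, which encodes the surface antigen Sca-1, by 0.68 ± 0.07. Ifi44 rose from 0.113, 0.514 and 0.368 to 4.56, 2.68 and 4.09 CPM (3.48 ± 0.41, and 1.04 on the log2(FPKM + 1) scale). The STAT letters described for Irf1 were in 38.1% of the 21 list members with a promoter, against 33.3% in the glucocorticoid response list and 8.41% of all.

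**Figure D3:**
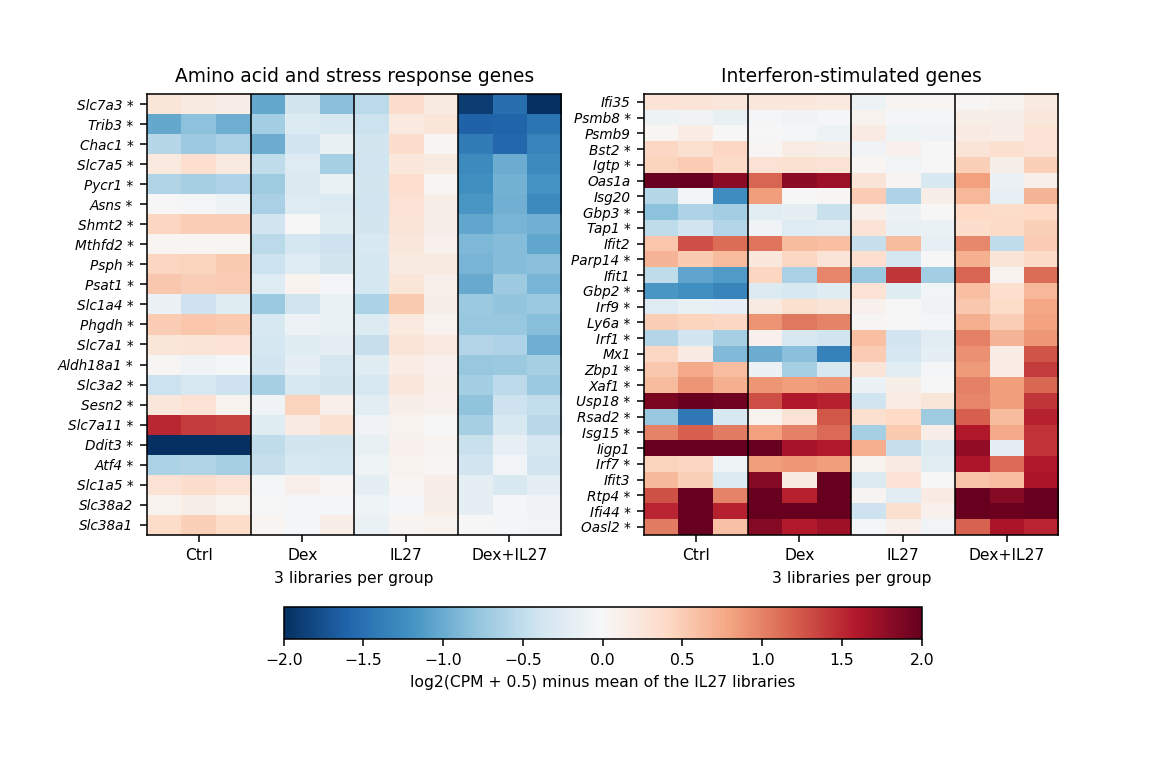
Level in each of the 12 day 9 libraries (columns, 3 per group) relative to the mean of the 3 IL27 libraries, as log2 of CPM plus 0.5 on a colour scale limited at 2, for the amino acid and stress response list and the interferon-stimulated list; a star marks genes that passed for Dex+IL27 against IL27. In the first list 20 of 22 genes carry a star and are lower with Dex+IL27, and in the second 19 of 28 carry one and are higher.

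Several of the largest changes, among genes that averaged at least 10 CPM in IL27 or Dex+IL27 and did not overlap, lay outside these lists. Among rises, Sema3a, a secreted guidance factor, went from 0.849, 0.114 and 0.736 to 12, 10.9 and 9.33 CPM (4.22 ± 0.28). Kcna4, a voltage-gated potassium channel, went from 2.21, 1.88 and 1.53 to 27.2, 23.4 and 26.8 CPM (3.79 ± 0.35). Sv2c, a synaptic vesicle protein, went from 4.02, 8.11 and 6.31 to 54.2, 72.8 and 50.8 CPM (3.27 ± 0.22). These are genes better known from neurons, and the gap between their groups follows from how they were chosen. Serpina3f, a secreted protease inhibitor, rose by 3.87 ± 0.79 but varied between 4.08 and 27.8 CPM with Dex+IL27. The remaining large rises were 5031414D18Rik (3.67), Gpnmb, a membrane glycoprotein (2.79, and 3.73 without IL27 replicate 1), Zcchc18 (2.44) and Alpk2 (2.32). On the log2(FPKM + 1) scale several of these low genes changed less: Sema3a by 1.28, Kcna4 by 2.19, Serpina3f by 2.27, 5031414D18Rik by 2.22, Gpnmb by 1.47, Zcchc18 by 1.54 and Alpk2 by 1.02.

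Among falls chosen in the same way, Sval1 was the largest, from 25.2, 26.1 and 24.6 to 0.228, 1.28 and 0.519 CPM (-5.23 ± 0.47, adjusted p = 3.9e-06). Spp1, which encodes osteopontin, fell from 325, 475 and 392 to 80.5, 70.8 and 129 CPM (-2.09 ± 0.25). Adora3, an adenosine receptor, fell from 10.2, 7.99 and 12.4 to 0.628, 1.89 and 1.9 CPM (-2.79 ± 0.32). That none of the 3 overlapped between groups follows from how they were chosen. The water and glycerol channel Aqp9 fell by 2.55 ± 0.27, the cytoskeletal Shroom3 by 2.27 ± 0.20, the sugar carrier Slc2a6 by 2.18 ± 0.23 and the retinoic acid binding protein Crabp2 by 2.08 ± 0.38. Gm6455 (-3.20), Ttc39c (-2.78) and Speer1-ps1 (-2.75) completed the 15 largest falls at that level.

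The Dex response with IL27 was then set beside that without it, Dex against Ctrl, which uses other libraries. Dex alone changed 6850 genes (55.6%), 28.2% up and 27.4% down. Of the 3207 genes changed on top of IL27, 2485 also changed without it, which is 77.5% of the first set and 36.3% of the second, and 2303 of them went the same way (1060 up and 1243 down). Across the 12320 genes the 2 sets of log2 fold changes correlated at a Pearson r of 0.534, a description over genes that share 1 estimate of spread. Where the direction was shared, 1799 changes were smaller with IL27, and their medians were 0.48 with IL27 and 0.78 without. The difference between the 2 Dex changes was itself tested and passed for 3506 genes (28.5%; 13.7% positive and 14.7% negative), 1309 of them among those changed on top of IL27. Among genes that moved the same way 824 changed less with IL27 by this test and 30 changed more.

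**Figure D4:**
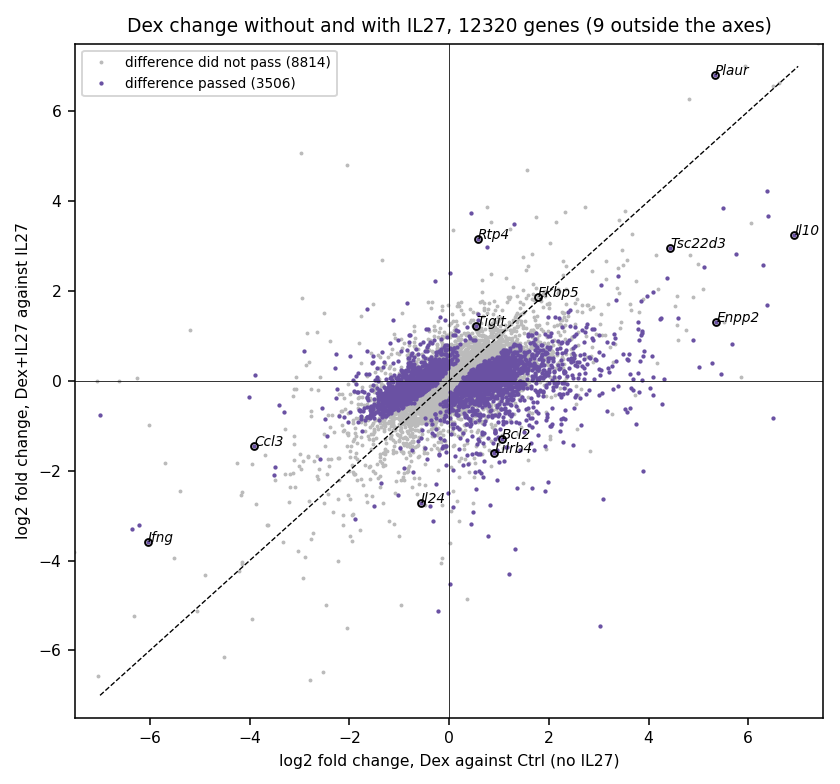
Log2 fold change with Dex without IL27 (horizontal, Dex against Ctrl) and with IL27 (vertical, Dex+IL27 against IL27) for the 12320 genes tested, coloured by whether the difference between the 2 changes passed (3506) or not (8814); 9 genes lie outside the axes. The cloud is wider along the horizontal axis, and the labelled genes Bcl2 and Lilrb4 lie to the right of 0 and below it.

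Fkbp5 rose by 1.86 with IL27 and by 1.78 without, and the difference did not pass (0.09 ± 0.13, adjusted p = 0.677); without IL27 it went from 35 ± 1.47 CPM in Ctrl to 120.2 ± 8.46 with Dex. Tsc22d3 rose less with IL27 than without (difference -1.48 ± 0.15), from 19.95 ± 2.49 CPM in Ctrl to 431 ± 48.8 with Dex, but reached its highest level, 796 ± 27.0 CPM, with both. Il10 started from 0.796 ± 0.526 CPM in Ctrl and from 7.59 ± 2.46 with IL27, and stood at 96.3 ± 7.96 with Dex and 72.5 ± 11.4 with both (difference in log2 change -3.68 ± 0.39). The mean with both was below that with Dex alone. Ifng ended at 14.8 ± 9.35 CPM with Dex and 12.1 ± 5.48 CPM with both, from 973 ± 183 in Ctrl and 147 ± 76.8 with IL27. In the glucocorticoid response list 19 of 23 genes rose without IL27 (median 1.41), beside 28.2% of all genes. The difference passed for 10, with 9 changes lower and 1 higher with IL27, beside 14.7% and 13.7% of all genes. The higher one was Plaur, whose difference was 1.48 on counts and -1.29 on log2(FPKM + 1) and did not pass without IL27 replicate 2 or 3.

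Tigit and Prdm1 changed more with IL27. Tigit rose by 0.54 ± 0.08 without IL27 and by 1.21 ± 0.08 with it (difference 0.67 ± 0.11, adjusted p = 0.00049). Prdm1 did not pass without IL27 (0.08 ± 0.21), and its difference of 0.93 ± 0.29 (adjusted p = 0.0258) did not pass under 7 of 22 alternatives, which were FPKM values without a filter and leaving out Ctrl replicate 2 or 3, Dex replicate 3, IL27 replicate 3 or Dex+IL27 replicate 2 or 3 (adjusted p up to 0.0679). Tcf7 stood at 21.3 ± 3.37 CPM in Ctrl and 19.3 ± 1.25 with Dex and passed only with IL27 (difference -1.36 ± 0.34, adjusted p = 0.00772). Pdcd1 (0.35 ± 0.18, adjusted p = 0.176) and Ctla4 (-0.02 ± 0.10, adjusted p = 0.896) gave differences that did not pass. For 14 of 28 interferon-stimulated genes the difference passed and was positive, beside 13.7% of all genes, and for 0 it was negative. Irf7 was one of the 14 (1.50 with IL27 against 0.58 without).

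A total of 182 genes passed in both settings in opposite directions: 126 rose with Dex alone and fell when Dex was added to IL27, and 56 did the reverse. The difference passed for all 182, which largely follows from passing both tests with opposite signs. Bcl2 rose from 305 ± 14.2 to 633 ± 50.4 CPM without IL27 (1.05 ± 0.10) and fell with it from 409 ± 74.9 to 167 ± 0.531 CPM, a difference of -2.35 ± 0.15 (adjusted p = 1.58e-07). Lilrb4 rose by 0.91 ± 0.11 and fell by 1.61 ± 0.11, and Trib3 rose by 0.53 ± 0.15 and fell by 1.61 ± 0.15. Socs1 and Socs2 rose by 0.86 and 0.51 without IL27 and fell with it. Tnfrsf9 rose by 0.39 ± 0.09 and Klrk1 by 0.23 ± 0.06 without IL27, and both fell with it. In these 7 genes Dex alone gave the highest mean of the 4 groups only for Bcl2, Lilrb4, Socs1 and Socs2.

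Of 41 cell cycle genes 30 fell with Dex alone, beside 27.4% of all genes. The difference passed for 21 with a positive and 5 with a negative sign, beside 13.7% and 14.7% of all genes. Ccnd3 was among the 5 (-1.49 with IL27 against -0.99 without). Rrm2 fell from 570.2 ± 22.4 to 144 ± 12.7 CPM without IL27 (-1.98 ± 0.08) and from 98.7 ± 4.55 to 60.7 ± 5.74 CPM with it. Its level with IL27 alone was thus already under that with Dex alone. Of 25 Myc targets and ribosome biogenesis genes 23 fell without IL27, beside 27.4% of all genes, and 17 with it, beside 14.3%. The difference was positive and passed for 14, beside 13.7% of all genes. In the amino acid and stress response list 12 of 22 fell and 3 rose without IL27 (median -0.31), beside 27.4% and 28.2% of all genes. The difference passed for 10 with a negative and 2 with a positive sign, beside 14.7% and 13.7%.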

How the data were processed

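RNA was measured by SMART-Seq2 in 24 libraries of mouse CD8+ T cells, of which the 12 of day 9 (3 per group) were used. The authors deposited expected counts per gene, which are estimated counts that need not be whole, for 23366 genes. They also deposited FPKM values, used here only in alternatives. The submitters' processing notes name TopHat, RSEM, DESeq and the mm9 build without versions or settings.

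Counts were rounded and filtered with filterByExpr (minimum count 10, minimum total 15). The 12 libraries were fitted in 1 model with edgeR 4.0.16 (quasi-likelihood F test, TMM scaling, prior count 0.125, R 4.3.3), with Benjamini-Hochberg adjustment over the 12320 genes tested. The contrasts were Dex+IL27 against IL27, Dex against Ctrl, and their difference, which shares no library between its parts. SE is the absolute log2 fold change over the square root of F. Alternatives used limma 3.58.1, DESeq2 1.42.0, other scalings, filters and sample sets, and each replicate left out. The procedure was tested on simulated data first.

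Genes were named by rule: 20 fixed genes, up to 4 passing members with the lowest p of each of 21 gene lists, the 15 largest rises and falls among genes of at least 10 CPM in a group with no overlap, and the 8 largest differences in each direction between the Dex changes. All members, gene lists and 6 marker lists were chosen with earlier results of these data known. Promoters came from RefSeq on GRCm38.p6, matched by symbol, and no other coordinates were used because the files rest on mm9. Genes of near-identical families may share reads. Results for some members of the lists are not reported here.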

Additional observations from a re-analysis of the deposited data

Results flagged for a closer look

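The change with Dex differed between cells with and without IL27 by a test of the difference itself, given as the log2 change with IL27 minus that without (edgeR's quasi-likelihood test, adjusted p under 0.05), in 76 of the 123 named genes. Over all genes tested the difference passed for 28.5%. Some of the named genes were chosen because it passed, so the 2 shares are not comparable. Of the 76, the 31 given here are those among the 20 fixed genes, those named for the size of the difference, and those that passed in opposite directions. A negative value means a lower change with IL27. Among genes of glucocorticoid and cytokine signalling it was -1.48 for Tsc22d3, 1.48 for Plaur, -3.71 for Tgfb3, -3.68 for Il10, -1.0 for Socs3, -1.24 for Socs2 and -1.64 for Socs1. Among effector genes it was 2.45 for Ifng, 2.45 for Ccl3, 0.95 for Gzmb and 10.69 for Gzmd, a granzyme with 0 counts in the Dex libraries, so that its fitted value is no measure of size. Among receptors it was -0.45 for Lag3, 0.67 for Tigit, -2.51 for Lilrb4, -1.07 for Tnfrsf9 and -0.51 for Klrk1. Among regulators and survival genes it was 0.93 for Prdm1, -1.36 for Tcf7, -2.35 for Bcl2 and -2.14 for Trib3.

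Among the genes named for the size of the difference, the value was -4.71 for Stac2, an adaptor of calcium channels, -4.27 for the integrin chain Itga7, -4.05 for Enpp2, the enzyme autotaxin, -3.61 for the kinesin Kif1a, -3.50 for Crispld2 and -3.19 for Ecm1, an extracellular matrix protein. Enpp2 and Ecm1 rose on top of IL27 (1.31 ± 0.21 and 1.41 ± 0.16), while the other four did not pass there. Without IL27 replicate 1 Stac2 (0.68, adjusted p = 0.0234, in place of 0.30) and Kif1a (1.11, adjusted p = 0.0394, in place of 0.18) passed, and Itga7 passed with no filter on low counts (adjusted p = 0.0195). It was 2.58 for Rtp4, 2.48 for the interferon-induced GTPase Iigp1, 3.01 for Ugt1a10, 3.06 for the scavenger receptor Olr1 and 3.58 for Ly6c2, an antigen of effector and memory CD8+ T cells. Ly6c2 fell with Dex alone from 121 ± 55.2 to 16 ± 1.05 CPM and did not pass with IL27 (0.66 ± 0.36, adjusted p = 0.189). It passed without IL27 replicate 1 (1.08, adjusted p = 0.0328), without Dex+IL27 replicate 2 (0.98, adjusted p = 0.0497) and with no filter. Iigp1 did not pass with IL27 (1.36 ± 0.52, adjusted p = 0.0691) but did without IL27 replicate 1 (1.99, adjusted p = 0.0174), without Dex+IL27 replicate 2 (1.79, adjusted p = 0.0109) and with no filter.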

How the results depend on the processing

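Over the 17 alternatives run for each named gene (16 for Eomes and Gzmd), 110 of the 115 that passed kept their call, and 5 lost it somewhere: Eomes, Socs3, Egr3, Ptprc and Ugt1a10. Leaving out 1 library gave 2160 to 3959 changed genes, with 942 to 1865 up and 1218 to 2094 down. The lowest count of rises, 942, came without IL27 replicate 3 and the highest, 1865, without IL27 replicate 1. Leaving out 1 library moved genes that did not pass across 0: Kif1a (0.18) lay between -0.17 and 1.11, Crispld2 (-0.11) between -0.24 and 0.10, and Gzmd (-0.21), with at most 1 CPM in any of the 6 libraries, between -5.41 and 1.17. The difference between the Dex changes of Plaur was -1.29 on log2(FPKM + 1), with and without a filter, in place of 1.48. Its mean FPKM was 1.93 in Ctrl, 76.8 with Dex, 0.0933 with IL27 and 10.97 with Dex+IL27. The added 1 was thus larger than its IL27 level. The cause was not tested. Of 682 alternatives for the 31 differences 45 did not pass, most often for Ugt1a10 (11), Olr1 (7), Prdm1 (7) and Lag3 (6, adjusted p up to 0.0856). Large differences were among those lost. Those of Tgfb3 and Itga7 did not pass in limma on log2(FPKM + 1), with or without a filter (adjusted p up to 0.329 and 0.33). That of Kif1a did not pass in limma on any FPKM scale used (adjusted p up to 0.644). The difference of Gzmd did not pass without Dex+IL27 replicate 2.

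The labels do not say whether shared replicate numbers pair the libraries. Deviations of same-numbered IL27 and Dex+IL27 libraries correlated at 0.019, 0.093 and -0.093, and those of differently numbered ones between -0.113 and 0.102. With 3 libraries per group these values cannot settle it. With the replicate number as a block 3197 genes changed, 1467 up and 1730 down. List medians near 0 depended on single libraries: that of cytotoxic granule genes (-0.04) was 0.10, 0.07 and 0.16 without IL27 replicate 1, Dex+IL27 replicate 1 and Dex+IL27 replicate 3, and that of NK-type receptors (-0.16) was 0.07 without IL27 replicate 1.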
